A study of Mus musculus with 15 samples.

Results

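The genes described here are 32 genes of smooth muscle and the contractile apparatus, taken by symbol from 45905 genes in each of 2 tables of reads per gene, and all 32 were found in both. They were followed mainly in 6 libraries of mouse gut, and 9 libraries of gut organoids served as background. The gut libraries are 3 described as PG_KO and 3 described as ctr, each with its own code, where PG stands for plakoglobin, the junction protein encoded by Jup. The titles and descriptions of the gut libraries conflict: the titles give the PG_KO libraries a floxed Jup gene and DSS colitis (DSS, dextran sodium sulfate, is a chemical that injures the colon lining) and give the ctr libraries the floxed gene with iVilCre ERT2, a Cre recombinase under the villin promoter that tamoxifen activates in intestinal epithelium. Groups are named here by the descriptions, and whether DSS, Cre or both separate them cannot be told apart. Cre under this promoter acts in epithelium, so smooth muscle is not the cell type it targets. The organoids form 3 groups of 3: Tamoxifen organoids with code T41, iVilCre ERT2 and the floxed gene, and DMSO and nativ organoids, both with code T75 and the floxed gene without Cre. Nothing in the labels says that replicates of an organoid group came from separate animals, so p-values there measure only the spread between these samples, which may be technical. Ages, sexes and the stretch of gut sampled are not given in the sources used here.

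Smooth muscle of the gut wall lies in an outer muscle coat and in a thin sheet under the mucosa. It contracts when calcium enters the cell, binds calmodulin and activates myosin light chain kinase, which phosphorylates the regulatory light chain so that myosin pulls on actin filaments. The genes of this apparatus are switched on by serum response factor together with its coactivator myocardin. Serum response factor binds a short element known as the CArG box. Acta2, Tagln and Myl9 are also used by pericytes and myofibroblasts, and several other genes in the list are used by many cell types.

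Promoter windows from RefSeq (build GRCm38.p6, 250 bases before to 50 after the start of a transcript) were matched for 28 of the 32 genes. Myh11, Actg2, Tagln and Myocd had no window and were not searched. Windows are shown because the genes moved together across the gut libraries. The first below is that of Acta2, the aortic smooth muscle actin (chr19:34255324-34255623, minus strand). The others are those of Myl9, the regulatory light chain (chr2:156775214-156775513, plus strand), Ldb3, the LIM domain protein that ran against the rest (chr14:34588632-34588931, minus strand), and Des, the intermediate filament protein desmin (chr1:75360042-75360341, plus strand). Each is written 5′ to 3′ on the strand of its gene, and capitals mark CArG boxes in a relaxed form, in which a single one of the A or T positions may hold G or C.
Acta2: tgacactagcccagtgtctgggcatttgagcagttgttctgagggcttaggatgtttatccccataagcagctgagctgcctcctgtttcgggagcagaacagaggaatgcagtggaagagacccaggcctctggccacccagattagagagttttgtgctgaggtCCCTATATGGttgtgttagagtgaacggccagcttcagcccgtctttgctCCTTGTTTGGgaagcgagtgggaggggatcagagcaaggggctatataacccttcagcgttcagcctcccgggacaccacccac
Myl9: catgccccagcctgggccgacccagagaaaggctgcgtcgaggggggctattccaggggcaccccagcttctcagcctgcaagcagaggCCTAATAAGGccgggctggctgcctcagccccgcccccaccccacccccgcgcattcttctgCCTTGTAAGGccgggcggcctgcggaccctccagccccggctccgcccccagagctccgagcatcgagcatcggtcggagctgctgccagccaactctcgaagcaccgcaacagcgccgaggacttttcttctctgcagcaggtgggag
Ldb3: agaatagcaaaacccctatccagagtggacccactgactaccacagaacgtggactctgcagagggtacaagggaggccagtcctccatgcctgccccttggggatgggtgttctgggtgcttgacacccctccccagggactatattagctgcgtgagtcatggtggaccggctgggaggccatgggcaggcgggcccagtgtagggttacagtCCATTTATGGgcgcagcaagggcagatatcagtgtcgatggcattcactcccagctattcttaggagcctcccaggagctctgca
Des: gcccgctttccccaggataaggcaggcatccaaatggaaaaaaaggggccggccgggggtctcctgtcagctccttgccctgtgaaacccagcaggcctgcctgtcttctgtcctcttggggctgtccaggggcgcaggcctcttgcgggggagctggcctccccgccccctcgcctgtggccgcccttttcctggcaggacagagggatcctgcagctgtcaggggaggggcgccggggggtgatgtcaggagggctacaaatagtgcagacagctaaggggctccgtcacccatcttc
The window of Acta2 held 2 relaxed boxes, starting at -84 and -34 from the transcript start. The window of Myl9 held 2, at -161 and -99, the first of them in the strict form. Ldb3, whose level did not follow the other genes, held a strict box at -35, and Des, whose level did, held none in this window. Both forms read the same on either strand, so a match covers both. The strict form occurred in 2 of the 28 matched genes (7.14%) and in 1.81% of all 27025 genes with a window. The relaxed form, which includes the strict one, occurred in 8 of 28 (28.6%), namely Acta2, Myl9, Synm, Pdlim3, Ldb3, Cacna1c, Pcp4 and Hspb6, against 11.3% of all genes. TATAAA, searched on the strand of the gene, occurred in 3 of 28 (10.7%), against 9.77% of all genes. A match describes these letters only.

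Gut libraries held 23194385 to 29257641 reads and organoid libraries 25185053 to 30744563, so that 3 reads in a library corresponded to 0.0976 to 0.129 CPM (reads of a gene scaled to a common library total). Such floors cover counting error only. Jup itself averaged 79.4 ± 3.89 CPM in PG_KO gut and 390.3 ± 97.4 CPM in ctr gut (SD, n = 3 each), with no overlap, a log2 change of -2.29 (SE 0.23). The quasi-likelihood test of edgeR, adjusted over all genes by the Benjamini-Hochberg method, gave it an adjusted p of 0.163, and DESeq2 gave 2.29e-12. The level of Jup therefore fits the descriptions and goes against the titles, which give Cre to the ctr libraries, while the main test called no gene in gut at an adjusted p under 0.05.

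The muscle genes divided the gut libraries differently from the group labels. Summed over the 32 genes, PG_KO replicates 1, 2 and 3 held 2675, 3012 and 3222 CPM, whereas ctr replicates 1, 2 and 3 held 11153, 8252 and 2177 CPM. The ctr libraries 1 and 2 thus had several times as much RNA of these genes as the other 4, and ctr replicate 3 had the lowest sum. Over a core of 5 genes (Myh11, Actg2, Des, Cnn1 and Lmod1) PG_KO replicates 1, 2 and 3 held 361.5, 508 and 614 CPM, whereas ctr replicates 1, 2 and 3 held 2384, 1823 and 358 CPM. PG_KO replicate 1 and ctr replicate 3 were thus about level, and PG_KO replicate 1 was the lowest library for Myh11, Acta2, Actg2, Myl9 and Tagln. The genes took 0.268% to 0.322% of the reads of PG_KO libraries and 0.218% to 1.12% of those of ctr libraries. In bulk tissue, fewer muscle cells and less muscle RNA per cell cannot be told apart.

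The high level of ctr replicates 1 and 2 held for nearly every gene in the list. ctr replicate 1 was the highest of the 6 libraries for 30 of 32 genes, against 36.4% of all 18043 tested genes. The exceptions were Smtn, highest in ctr replicate 2, and Ldb3, highest in PG_KO replicate 3. ctr replicates 1 and 2 were the highest pair for 28 of 32 genes, against 26.7% of all genes, and the 4 genes that broke the pattern were Ldb3, Pdlim7, Hspb7 and Itih4. ctr replicate 3 was the lowest library for 17 of 32, against 15.4% of all genes, and for the other 15 it lay within the range of the PG_KO libraries. The highest library exceeded the lowest by a median of 6.42-fold over the 32 genes, with a range of 2.25-fold for Tpm1 to 17.4-fold for Hspb7, whereas the median over all tested genes was 1.98-fold. Between the ctr libraries alone, replicate 1 exceeded replicate 3 by a median of 5.96-fold, against 1.08-fold over all genes, and replicate 2 exceeded replicate 3 by a median of 3.98-fold, against 1.03-fold.

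**Figure D1:**
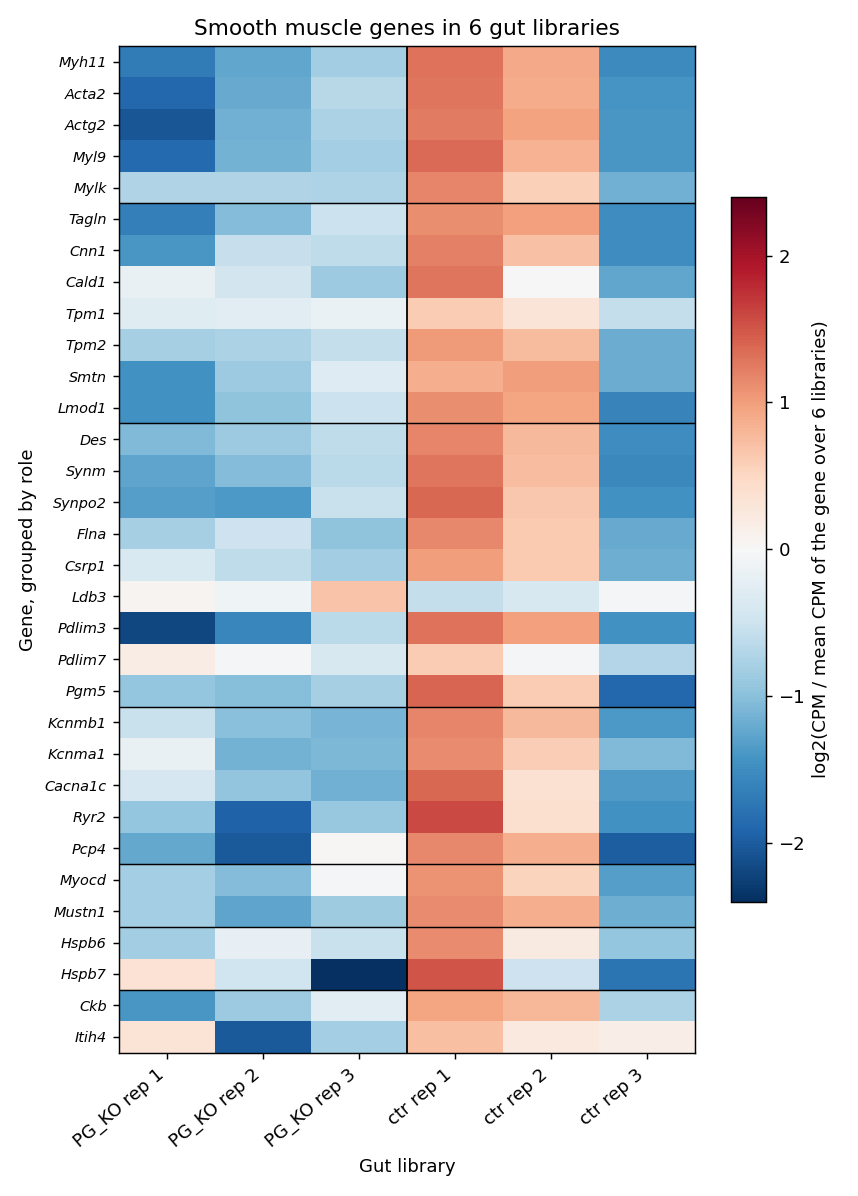
Each row is a gene and each column a gut library, with the 3 PG_KO libraries left of the 3 ctr libraries, and colour is the log2 of CPM over the mean CPM of that gene in the 6 libraries. ctr replicates 1 and 2 are the highest pair for 28 of 32 genes, ctr replicate 3 is the lowest library for 17, and Ldb3 has its lowest values in ctr replicates 1 and 2.

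Because of this spread, the groups overlapped for all 32 genes, whereas 18.6% of all tested genes did not overlap. The edgeR test called 0 of 32 genes in PG_KO against ctr gut, and 0.0% of all genes. At an unadjusted p under 0.05 it held 11 of the 32, against 15% of all genes, and DESeq2 held 22 of the 32, against 12.4%. DESeq2 also called 0 of the 32 after adjustment, against 2.38% of all genes, and its lowest adjusted p was 0.0720, for Pdlim3. The estimates nevertheless ran one way: 31 of 32 log2 changes were negative, against 52.6% of all genes, and their median was -1.29, against -0.03 over all genes.

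Leaving out ctr replicate 3 turned the result. In that fit 21 of 32 genes were lower in PG_KO gut than in ctr gut and 0 were higher, against a background of 5.91% of all genes called lower and 7.91% called either way, and the median log2 change was -1.71. Leaving out any other single library gave 0 calls. The 11 genes without a call in that fit were Cald1, Tpm1, Ldb3, Pdlim7, Kcnma1, Cacna1c, Pcp4, Myocd, Hspb6, Hspb7 and Itih4. The comparison therefore rests on a single ctr library, and the 2 remaining ctr libraries are those with the high muscle level. The column of that library is headed gtr where the description has ctr, and it was taken as ctr replicate 3 because its code, T52, belongs to no other sample.

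**Figure D2:**
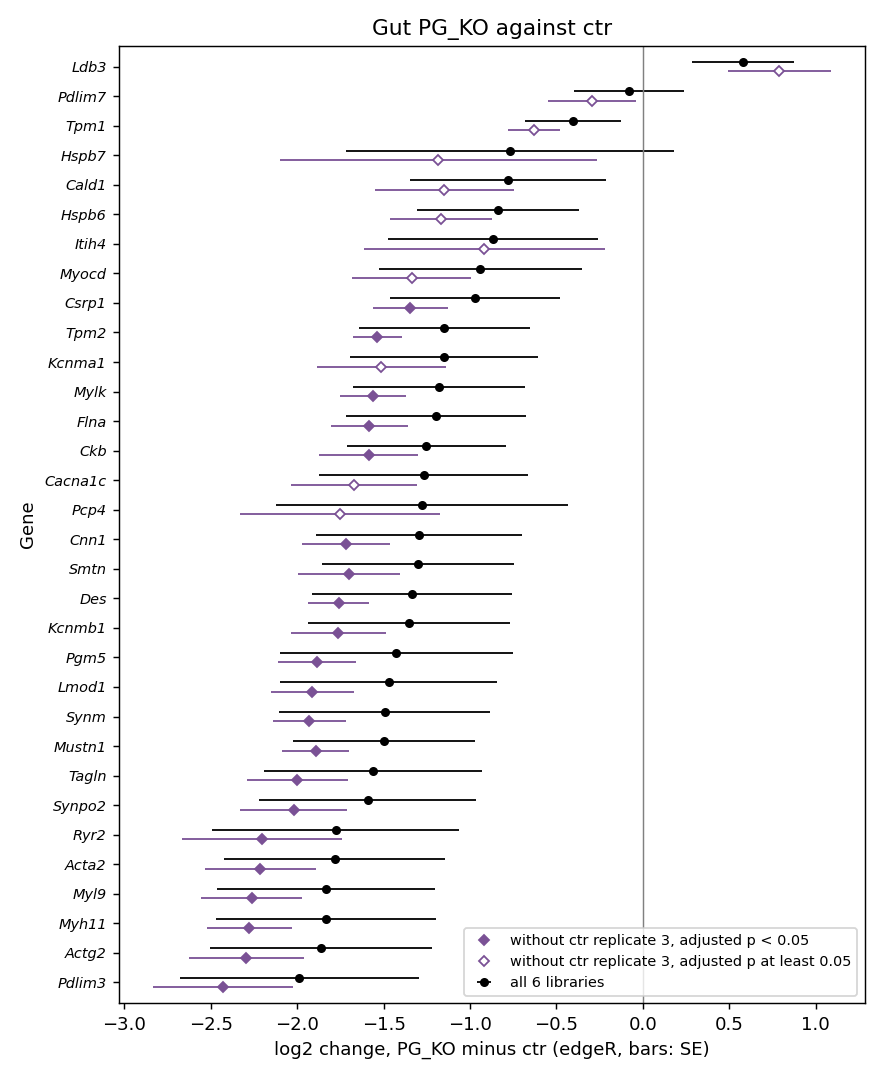
The horizontal axis is the log2 change of PG_KO minus ctr gut from edgeR with its SE, for all 6 libraries in black and without ctr replicate 3 in purple, with filled diamonds for an adjusted p under 0.05. All genes but Ldb3 lie below 0 with all libraries, and 21 diamonds are filled.

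The contractile actins, the myosin chains and the kinase that drives them all had ctr replicates 1 and 2 above the other 4 libraries. Myh11, the smooth muscle myosin heavy chain (chr16:14194527-14292188), had 122, 164 and 218 CPM in PG_KO libraries 1 to 3, against 964, 732 and 136 CPM in ctr libraries 1 to 3. Acta2 (chr19:34240336-34255585) had 122, 196 and 284 CPM in the PG_KO libraries, against 1093, 842 and 170 CPM in the ctr libraries. In both genes ctr replicate 3 sat inside the PG_KO range and ctr replicates 1 and 2 far above it, so the groups overlapped. The log2 change of Myh11 was -1.83 (SE 0.64, edgeR adjusted p = 0.330) with all libraries and -2.28 (SE 0.24, edgeR adjusted p = 0.0329) without ctr replicate 3. For Acta2 it was -1.78 (SE 0.64, edgeR adjusted p = 0.330) and, without ctr replicate 3, -2.21 (SE 0.32, edgeR adjusted p = 0.0373).

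Actg2, the enteric smooth muscle actin, had 37.2, 69.5 and 91.4 CPM in PG_KO libraries, against 368, 303 and 58.9 CPM in ctr libraries. Myl9 had 47.9, 78.7 and 98.7 CPM in PG_KO libraries, against 443, 308 and 65.6 CPM in ctr libraries. Both followed Myh11 and Acta2 library by library, with PG_KO replicate 1 the lowest of all. Mylk, the kinase of the light chain, behaved differently inside the PG_KO group. It had 170.5, 170.7 and 168.8 CPM in PG_KO libraries, against 640, 417 and 127 CPM in ctr libraries, so that its PG_KO libraries were nearly equal, whereas the other 4 genes of this set were lowest in PG_KO replicate 1 and highest in PG_KO replicate 3. Mylk also makes a long form used outside muscle, and counts per gene do not separate the forms. The actin genes Acta2, Actg2 and the striated Acta1 encode near-identical proteins, and how well reads were separated among them was not tested.

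The regulators of the thin filament had negative estimates of differing size, none of them called with all libraries. Tagln, the actin-binding protein transgelin (chr9:45929628-45936058), had 128, 194 and 279 CPM in PG_KO libraries, against 867, 792 and 142 CPM in ctr libraries. Tpm1, a tropomyosin used by most cell types (chr9:67022590-67049672), had 381, 387 and 418 CPM in PG_KO libraries, against 706, 578 and 314 CPM in ctr libraries. ctr replicates 1 and 2 were the highest for both, and ctr replicate 3 lay within the PG_KO range for Tagln and below it for Tpm1. The log2 change was -1.56 for Tagln (SE 0.63, edgeR adjusted p = 0.331) and -0.40 for Tpm1 (SE 0.28, edgeR adjusted p = 0.458). Cnn1, calponin, had log2 changes of -1.29 with all libraries and -1.72 without ctr replicate 3. Lmod1, the actin nucleator leiomodin, had -1.47 and, without that library, -1.91. Smtn, smoothelin, had -1.30 and, without that library, -1.70, and Tpm2 had -1.15 and -1.53. Cald1, caldesmon, had 184, 154.5 and 114 CPM in PG_KO libraries, against 508, 208 and 87.8 CPM in ctr libraries. ctr replicate 1 stood far above the others, and within PG_KO replicate 1 was the highest, whereas it was the lowest for Tagln. Its log2 change was -0.78 (SE 0.57, edgeR adjusted p = 0.479) and stood at 0.03 without ctr replicate 1.

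The intermediate filament and linker genes included Flna, the member with the highest mean CPM in gut, and Ldb3 and Pdlim7, which broke the common order. Flna, filamin A, a crosslinker of actin in many cell types (chrX:74223461-74249854), had 436, 532 and 384 CPM in PG_KO libraries, against 1682, 1158 and 325 CPM in ctr libraries. Csrp1, a LIM protein of the actin cytoskeleton (chr1:135720063-135752229), had 294, 249.9 and 213 CPM in PG_KO libraries, against 764, 589 and 168 CPM in ctr libraries. For both, ctr replicate 3 was below every PG_KO library and the other ctr libraries were above every one. The log2 change was -1.20 for Flna (SE 0.52, edgeR adjusted p = 0.337) and -0.97 for Csrp1 (SE 0.49, edgeR adjusted p = 0.366). Des had 125, 141 and 170 CPM in PG_KO libraries, against 586, 444 and 92.0 CPM in ctr libraries. Synm, synemin, which assembles with desmin, had 27.8, 32.4 and 42.6 CPM in PG_KO libraries, against 162, 111 and 22.7 CPM in ctr libraries. Both had ctr replicate 3 as the lowest library. Pdlim3, an actinin-associated LIM protein, had the most negative log2 change of the 32, -1.99 (SE 0.69, edgeR adjusted p = 0.330), with 8.21, 12.6 and 23.7 CPM in PG_KO libraries, against 91.8, 73.6 and 13.7 CPM in ctr libraries. Synpo2, an actin-bundling protein, had -1.59, and Pgm5, a phosphoglucomutase relative found at muscle attachment plaques, had -1.43.

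Ldb3, a PDZ and LIM domain protein best known from the Z-disc of striated muscle (chr14:34526699-34590314), was the only member with a positive estimate. It had 11.4, 10.1 and 17.5 CPM in PG_KO libraries, against 7.34, 8.32 and 10.5 CPM in ctr libraries. ctr replicates 1 and 2, which were highest for nearly all other members, were the lowest for Ldb3, and the groups overlapped between PG_KO replicate 2 and ctr replicate 3. Its log2 change was 0.58 (SE 0.30, edgeR adjusted p = 0.367), and 0.79 without ctr replicate 3 (SE 0.30, edgeR adjusted p = 0.121). Pdlim7, a relative of Ldb3, had 82.1, 71.5 and 56.1 CPM in PG_KO libraries, against 111, 71.3 and 45.0 CPM in ctr libraries. The log2 change was -0.08 (SE 0.32, edgeR adjusted p = 0.904), and only ctr replicate 1 stood above the PG_KO range.

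**Figure D3:**
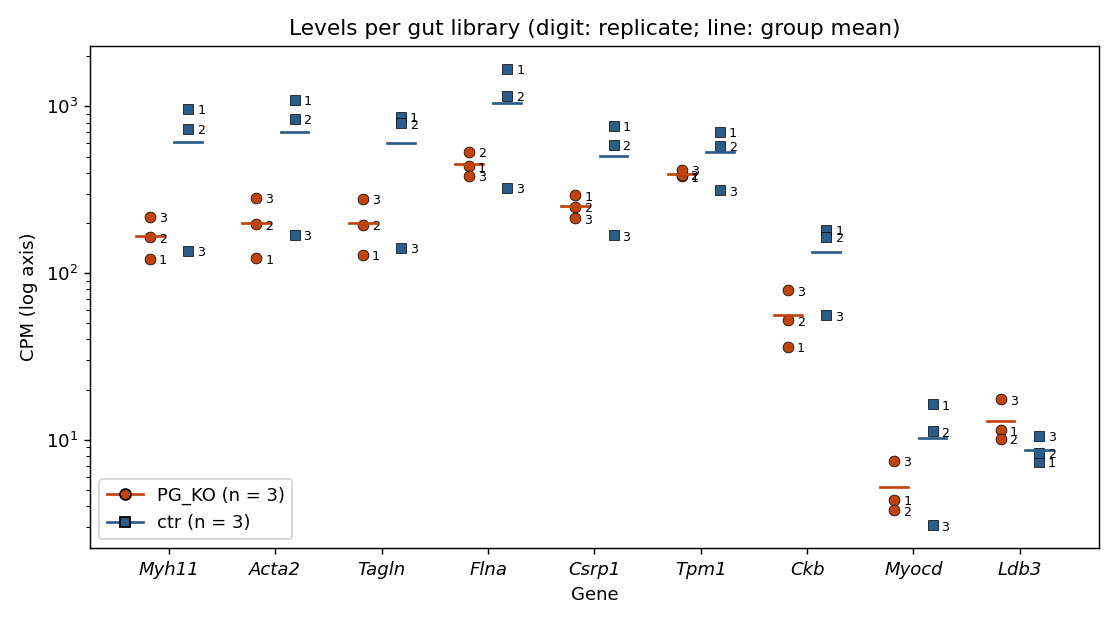
CPM on a log axis for 9 genes, with each library as a point marked by its replicate number, PG_KO as circles left of ctr as squares, and a line at each group mean. ctr replicates 1 and 2 lie above all PG_KO points for 8 genes and below them for Ldb3, and ctr replicate 3 lies among or below the PG_KO points for all 9.

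Genes of calcium entry and of the potassium channel that counters it had negative estimates without a call. Cacna1c, the pore of the L-type calcium channel, had 29.5, 20.2 and 17.6 CPM in PG_KO libraries, against 102, 50.8 and 15.3 CPM in ctr libraries. Kcnma1, the pore of the large-conductance potassium channel, had 25.6, 13.3 and 13.8 CPM in PG_KO libraries, against 63.6, 43.5 and 14.0 CPM in ctr libraries. In both, PG_KO replicate 1 was the highest of its group, the reverse of the contractile genes. The log2 change was -1.27 for Cacna1c (SE 0.60, edgeR adjusted p = 0.355) and -1.15 for Kcnma1 (SE 0.54, edgeR adjusted p = 0.354). Kcnmb1, the smooth muscle subunit of that potassium channel, had -1.35 and was lower in PG_KO gut without ctr replicate 3 (-1.76, edgeR adjusted p = 0.0382). Ryr2, a calcium release channel of internal stores, had -1.78 and, without that library, -2.20 (edgeR adjusted p = 0.0469). Pcp4, a small calmodulin-binding protein, reached at most 2.83 CPM and had as few as 8 reads in a library, and its log2 change was -1.28 (SE 0.84, edgeR adjusted p = 0.445).

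Myocd, myocardin (chr11:65173608-65269989), had 4.37, 3.76 and 7.45 CPM in PG_KO libraries, against 16.3, 11.2 and 3.06 CPM in ctr libraries. The coactivator was highest in ctr replicates 1 and 2 and lowest in ctr replicate 3, so the groups overlapped. Its log2 change was -0.94 (SE 0.59, edgeR adjusted p = 0.426). Mustn1, a small nuclear protein of the musculoskeletal system, had 27.8, 20.3 and 27.1 CPM in PG_KO libraries, against 107, 89.1 and 21.6 CPM in ctr libraries. Its log2 change was -1.50 (SE 0.53, edgeR adjusted p = 0.330) and -1.89 without ctr replicate 3 (edgeR adjusted p = 0.0329).

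The small heat shock proteins did not move as a pair. Hspb6, which acts in the relaxation of smooth muscle, had 9.06, 14.0 and 11.2 CPM in PG_KO libraries, against 35.2, 18.6 and 8.40 CPM in ctr libraries, and followed the common order. Hspb7, known from heart and skeletal muscle, had 27.6, 15.8 and 3.56 CPM in PG_KO libraries, against 62.1, 15.4 and 6.46 CPM in ctr libraries. Its range within each group was wider than the gap between them, with PG_KO replicate 1 above ctr replicate 2. The log2 change was -0.84 for Hspb6 (SE 0.47, edgeR adjusted p = 0.389) and -0.77 for Hspb7 (SE 0.95, edgeR adjusted p = 0.671), and Hspb7 had 0.53 without ctr replicate 1. Ckb, the brain-type creatine kinase that buffers ATP, had 36.2, 52.1 and 78.7 CPM in PG_KO libraries, against 182, 165 and 55.8 CPM in ctr libraries. The log2 change of Ckb was -1.25 (SE 0.46, edgeR adjusted p = 0.330). Itih4, a secreted protein made mainly by liver, had 0.599, 0.119 and 0.273 CPM in PG_KO libraries, against 0.788, 0.560 and 0.535 CPM in ctr libraries. As few as 3 reads lay behind these values, and the log2 change, -0.87 (SE 0.61, edgeR adjusted p = 0.466), was not distinguishable from 0 at this depth.

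Per kilobase of exon, the mean level over the 6 gut libraries was highest for Tagln (252 CPM per kb), followed by Csrp1 (197), Acta2 (159), Myl9 (148) and Actg2 (118). Myh11 reached 51.9 CPM per kb and Myocd 0.923. The lowest were Ryr2 with 0.509 and Itih4 with 0.151 CPM per kb. Whether neighbours in this order differ was not tested.

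To see how the genes differ apart from their shared level, each was expressed relative to a core of Myh11, Actg2, Des, Cnn1 and Lmod1 in the same library, as its log2(CPM + 0.1) minus the mean of the core, leaving the gene itself out. The SD over the 6 gut libraries became smaller for 28 of 32 genes, against 16.2% of all tested genes, and its median was 0.380 after and 1.06 before. In 10 genes it was under 0.3, against 0.466% of all genes: Tagln (0.12), Lmod1 (0.13), Synm (0.14), Myl9 (0.18), Myh11 (0.18), Acta2 (0.19), Cnn1 (0.24), Synpo2, Smtn and Des (0.25 each). The proportions of these 10 genes to the core varied less than their levels, which differed several-fold between libraries. The 4 genes with a larger SD relative to the core than on their own were Ldb3 (1.49), Itih4 (1.13), Pdlim7 (0.98) and Tpm1 (0.77), and Hspb7 had 1.36. The core genes are members themselves, so the small values of the core are partly built in.

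**Figure D4:**
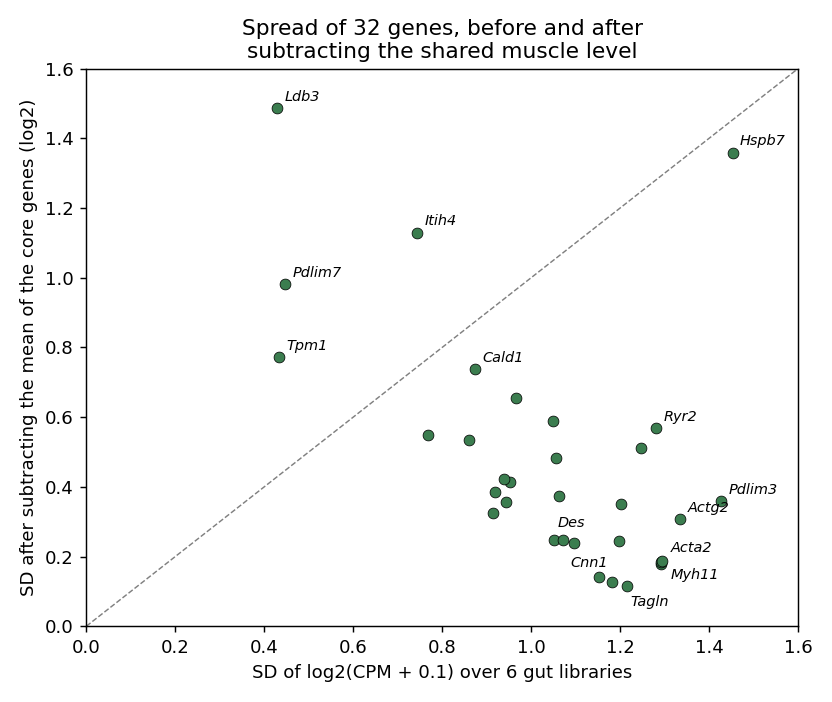
Each point is a gene, with the SD of its log2(CPM + 0.1) over 6 gut libraries on the horizontal axis and the SD after subtraction of the core on the vertical axis, and the dashed line marks equal values. The 28 points below the line include Tagln at 0.12, and Ldb3, Itih4, Pdlim7 and Tpm1 lie above it.

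Relative to the core, 7 of 32 genes did not overlap between PG_KO and ctr gut. Myh11, Acta2, Actg2, Myl9 and Pdlim3 were lower relative to the core in every PG_KO library, against 0.249% of all genes, and Des and Cnn1 were higher, against 1.71%. Most genes of the tables are not muscle genes, so these backgrounds are a loose yardstick. Myh11, Actg2, Des and Cnn1 are core genes, each part of the reference of the others. A lower Myh11 or Actg2 thus raises Des and Cnn1 relative to the core, and the lower and higher genes are not separate results. Among these 7 genes the largest shift was that of Pdlim3, with a mean of -2.49 in PG_KO libraries and -1.99 in ctr libraries on the log2 scale. Actg2 followed, with -0.38 in PG_KO libraries and 0.07 in ctr libraries. Genes whose groups overlapped had larger shifts of PG_KO minus ctr, all upward: Ldb3 (1.78), Pdlim7 (1.20), Tpm1 (0.89), Cald1 (0.74), Hspb6 (0.59), Hspb7 (0.58) and Myocd (0.52).

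Plain ratios to desmin, chosen after these values were seen, describe the same separation. The ratio of Acta2 to Des was 0.980, 1.39 and 1.67 in PG_KO libraries 1 to 3, against 1.87, 1.90 and 1.84 in ctr libraries 1 to 3. The ratio of Actg2 to Des was 0.298, 0.493 and 0.539 in PG_KO libraries, against 0.629, 0.682 and 0.640 in ctr libraries. The ratio of Myh11 to Des was 0.975, 1.17 and 1.28 in PG_KO libraries, against 1.65, 1.65 and 1.47 in ctr libraries. In all 3 ratios ctr replicate 3 stayed with the other ctr libraries although its muscle level was that of the PG_KO libraries, and PG_KO replicate 1 was the lowest. Myl9 to Des averaged 0.508 ± 0.108 in PG_KO gut and 0.721 ± 0.0320 in ctr gut, and Pdlim3 to Des averaged 0.0982 ± 0.0376 in PG_KO gut and 0.157 ± 0.00877 in ctr gut (SD, n = 3 each). These genes and Des were picked because they separated the groups relative to the core. The separation of the 5 ratios restates that choice, and no p-value is read from it. The ratio of Actg2 to Acta2, both actins, averaged 0.327 ± 0.0254 in PG_KO gut and 0.348 ± 0.0113 in ctr gut, and the groups overlapped.

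Within PG_KO, the highest library was not the same for all genes. PG_KO replicate 3 was the highest of the 3 for 19 of 32 genes, against 40.4% of all genes, among them Myh11, Acta2, Actg2, Myl9, Tagln, Des and Ckb. PG_KO replicate 1 was the highest for 9, a share close to the 24.4% of all genes: Cald1, Csrp1, Pdlim7, Kcnmb1, Kcnma1, Cacna1c, Mustn1, Hspb7 and Itih4. Summed markers of fibroblasts and pericytes, which share several of these genes, were 2.5-fold and 2.15-fold higher in PG_KO replicate 1 than in PG_KO replicate 3, whereas the muscle core stood at 0.588 of its level in PG_KO replicate 3. The fibroblast markers differed among themselves: in PG_KO replicates 1 and 3, C3 had 602 and 108 CPM, Dcn 424 and 120, Col1a1 119 and 118, and Col14a1 1.23 and 1.74. Fibroblast markers also summed to 228 to 678 CPM in DMSO and nativ organoids, against 2.07 to 2.76 CPM in Tamoxifen organoids. Their sum is therefore not read as a level of fibroblasts alone. Pericyte markers summed to 28.9 to 84.0 CPM in DMSO and nativ organoids and 40.2 to 42.3 CPM in Tamoxifen organoids. The pericyte sum is likewise not read as a level of pericytes alone. The part of fibroblasts and pericytes in the order of these genes was not tested.

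Summed markers of most other cell types of the gut wall were also highest in ctr replicate 1. Fibroblast markers, 10 genes, summed to 763 to 1910 CPM in PG_KO libraries and 1197 to 5205 CPM in ctr libraries, and ctr replicate 1 held 4.35-fold and ctr replicate 2 held 2.28-fold the level of ctr replicate 3. As above, this sum is not read as a level of fibroblasts alone. Pericyte markers, 7 genes, summed to 136 to 293 CPM in PG_KO libraries and 137 to 817 CPM in ctr libraries, with ratios of 5.95 and 2.61 of ctr replicates 1 and 2 to ctr replicate 3. Nor is this sum read as a level of pericytes alone. The same 2 ratios were 5.20 and 3.28 for 6 endothelial markers, 3.18 and 1.47 for 10 markers of enteric neurons and glia, and 2.75 and 1.75 for 8 immune markers, which summed to 184 to 289 CPM in PG_KO libraries and 311 to 855 CPM in ctr libraries. Of 4 markers of interstitial cells of Cajal, the pacemaker cells of the muscle coat, Kit had ratios of 3.00 and 2.04, Etv1 of 5.57 and 2.38 and Gja1 of 2.21 and 1.32, whereas Ano1 had 0.651 and 0.417. Their sum, 1.62 and 0.968, is not read as a level of these cells, since the same 4 genes summed to 30.9 to 34.5 CPM in Tamoxifen organoids and 159 to 319 CPM in DMSO and nativ organoids. For 5 mesothelial markers, at 42.7 to 114 CPM in PG_KO libraries and 20.6 to 106 CPM in ctr libraries, the ratios were 1.93 and 0.375. Most of that sum was Msln, with 74.5, 17.9 and 50.8 CPM in ctr libraries 1 to 3. The scarcer Wt1 had ratios of 19.8 and 0.789, Upk3b of 14.3 and 0.771, Lrrn4 of 23.2 and 0.845, and Upk1b of 2.38 and 0.564. The mesothelial sum is not read as a level of these cells either. The same 5 genes summed to 549 to 846 CPM in DMSO and nativ organoids. For the muscle core the 2 ratios were 6.66 and 5.09. The 10 epithelial markers summed to 12348 to 15628 CPM in PG_KO libraries and 8526 to 13861 CPM in ctr libraries and were lowest in ctr replicate 1, at 0.615 of the level of ctr replicate 3. Markers of striated muscle, 12 genes, summed to 19.3 to 24.9 CPM in PG_KO libraries and 13.1 to 51.6 CPM in ctr libraries, with 3 or 4 of them at 0 in PG_KO libraries and 1 to 4 at 0 in ctr libraries. The same 12 genes summed to 44.7 to 49.7 CPM in Tamoxifen organoids, with 6 or 7 of them at 0. In DMSO and nativ organoids they summed to 5.32 to 8.59 CPM. Their sum is therefore not read as a level of striated muscle. The part of each of these cell types in the muscle result was not tested.

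Genes of the same pathway outside the 32 had negative medians too and again no call by edgeR with all libraries. Beside the counts below, all genes had 15% at an unadjusted p under 0.05 and 5.91% lower without ctr replicate 3, and DESeq2 called 2.38%. Of 15 signalling genes, 0 were called by either tool, 5 had an unadjusted p under 0.05 by edgeR, 8 were lower in PG_KO gut without ctr replicate 3, and the median log2 change was -0.84. Ppp1r14a, an inhibitor of myosin phosphatase, had 6.73, 9.50 and 13.8 CPM in PG_KO libraries, against 52.9, 42.9 and 9.56 CPM in ctr libraries. Itpr1, a calcium release channel, had a log2 change of -0.84 (edgeR adjusted p = 0.330). Rhoa, Rock1 and Rock2, which act in many cell types, had log2 changes of 0.17, 0.19 and 0.29. Of 10 receptors, 0 were called by edgeR and 1 was called lower by DESeq2, 3 were lower without ctr replicate 3, and the median was -1.22. The natriuretic peptide receptor Npr1 overlapped, with a log2 change of -1.54 (edgeR adjusted p = 0.342).

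Of 11 tested transcription factors of muscle, 0 were called by edgeR, 3 were lower without ctr replicate 3, and the median was -1.02. Srf, serum response factor itself, had 76.1, 83.5 and 88.1 CPM in PG_KO libraries, against 98.7, 106 and 75.2 CPM in ctr libraries, and its log2 change was -0.16 (edgeR adjusted p = 0.570), so its level varied less across libraries than that of its coactivator Myocd. Mef2c had a log2 change of -1.51 (edgeR adjusted p = 0.330). Gata4, which the gut epithelium also uses in a regional way, had 0.176, 0.198 and 0.0684 CPM in PG_KO libraries, against 1.43, 0.776 and 1.19 CPM in ctr libraries, and DESeq2 called it lower (adjusted p = 0.00320). Few reads lay behind these values: in PG_KO replicate 3 Gata4 was under 0.103 CPM, the level of 3 reads there. Of 24 tested genes of the cytoskeleton and membrane, 0 were called by edgeR, 8 were lower without ctr replicate 3, and the median was -0.84. Itga8, an integrin of smooth muscle, had 0.388, 0.713 and 0.752 CPM in PG_KO libraries, against 6.23, 3.75 and 0.765 CPM in ctr libraries, and DESeq2 called it lower (adjusted p = 0.0297). Its ctr replicate 3 lay just above the PG_KO libraries, so the groups did not overlap only by a small margin. Sspn, sarcospan, had a log2 change of -1.51 (edgeR adjusted p = 0.331).

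The organoids, which are grown from epithelium, had the muscle core near 0 but expressed part of the list. The 5 core genes summed to 0.878 to 1.40 CPM in Tamoxifen organoids, 0.507 to 0.918 CPM in DMSO organoids and 0.655 to 0.835 CPM in nativ organoids, against 358 to 2384 CPM in gut. In all 9 organoid libraries 17 of the 32 genes stayed under 1 CPM, among them Myh11, Acta2, Actg2, Tagln, Cnn1, Lmod1 and Myocd, and Hspb7 and Itih4 had 0 reads. The lowest gut library exceeded every organoid library for 26 of 32 genes, and the 6 exceptions were Csrp1, Ldb3, Pdlim7, Pcp4, Hspb6 and Ckb. In gut, the 17 genes under 1 CPM in organoids differed between the highest and the lowest library by a median of 7.08-fold, and the other 15 by 5.02-fold. The epithelial share of these 15 genes in gut was not tested.

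In organoids 17 of 32 genes passed the filter on low counts, and the other 15 reached at most 0.394 CPM. In Tamoxifen against DMSO organoids edgeR called 7 of these 17 higher and 7 lower, against 33.9% and 32.4% of all 16449 tested genes and 66.3% either way. With 14 of 17 genes called against 66.3% of all genes, nothing particular to muscle genes is read from the count. In Tamoxifen against nativ organoids the counts were also 7 higher and 7 lower, against 33.5% each and 66.9% either way. These comparisons share the Tamoxifen libraries, and code, Cre and treatment change together between T41 and T75, so that they cannot be told apart.

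Ckb, the member with the highest CPM in Tamoxifen organoids, had 463, 475 and 474 CPM in Tamoxifen organoids, against 38.7, 39.2 and 35.1 CPM in DMSO organoids and 42.4, 31.4 and 39.0 CPM in nativ organoids. Its log2 change was 3.58 against DMSO (SE 0.10, edgeR adjusted p = 5.34e-10) and 3.53 against nativ (SE 0.10, edgeR adjusted p = 5.80e-10). Every Tamoxifen library was above every DMSO and nativ library. Ldb3 had 47.7, 45.7 and 46.5 CPM in Tamoxifen organoids, against 1.42, 1.27 and 1.87 CPM in DMSO organoids and 2.78, 1.46 and 1.18 CPM in nativ organoids. Mylk had 47.0, 49.3 and 48.2 CPM in Tamoxifen organoids, against 2.23, 2.90 and 3.15 CPM in DMSO organoids and 3.21, 1.46 and 2.05 CPM in nativ organoids. Their groups lay far apart, with log2 changes against DMSO of 4.86 for Ldb3 (SE 0.25, edgeR adjusted p = 3.09e-08) and 4.06 for Mylk (SE 0.21, edgeR adjusted p = 3.39e-08).

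Myl9 rose by a log2 change of 3.67 against DMSO and 2.28 against nativ, Smtn by 0.55 and 0.62, and Des by 1.15 and 2.02, the last at 0.958 CPM in Tamoxifen organoids, 0.411 CPM in DMSO organoids and 0.216 CPM in nativ organoids. Kcnma1 had 204 reads in the Tamoxifen libraries together, 1 read in the DMSO libraries and 1 read in the nativ libraries. The ratio to DMSO was 196 with a 95% counting interval of 34.8 to 7790. The interval covers counting error only.

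Of the members that fell, the most abundant were cytoskeletal genes that epithelium uses. Csrp1 had 52.5, 48.5 and 53.1 CPM in Tamoxifen organoids, against 148, 173 and 178 CPM in DMSO organoids and 205, 245 and 203 CPM in nativ organoids. Flna had 63.2, 68.1 and 60.4 CPM in Tamoxifen organoids, against 164, 110.4 and 144 CPM in DMSO organoids and 144, 86.9 and 132 CPM in nativ organoids. Every Tamoxifen library was below every other library for both genes. Pdlim7 had 25.5, 26.3 and 25.3 CPM in Tamoxifen organoids, against 78.7, 73.4 and 76.2 CPM in DMSO organoids and 79.1, 66.1 and 70.2 CPM in nativ organoids. Tpm2 had 12.2, 10.7 and 11.3 CPM in Tamoxifen organoids, against 49.2, 78.5 and 69.5 CPM in DMSO organoids and 74.5, 70.3 and 67.1 CPM in nativ organoids. The T41 libraries were again apart from the T75 libraries for both. The log2 changes against DMSO were -1.76 for Csrp1, -1.19 for Flna, -1.63 for Pdlim7 and -2.60 for Tpm2, all called by edgeR. Cald1 had the most negative change, -3.92 against DMSO (SE 0.19, edgeR adjusted p = 2.08e-08) and -4.31 against nativ. Tagln had -2.24 against DMSO at under 1 CPM in every library, and Hspb6 had -0.92.

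Tpm1, the most abundant member in organoids other than Ckb in the Tamoxifen group, had 305, 299 and 298 CPM in Tamoxifen organoids, against 277, 272 and 277 CPM in DMSO organoids and 311, 285 and 287 CPM in nativ organoids. Its log2 change of 0.06 against DMSO (SE 0.09, edgeR adjusted p = 0.573) was smaller than its error, while its relative Tpm2 fell. Synm and Pcp4 were not called either, with log2 changes against DMSO of -0.53 and 0.57.

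**Figure D5:**
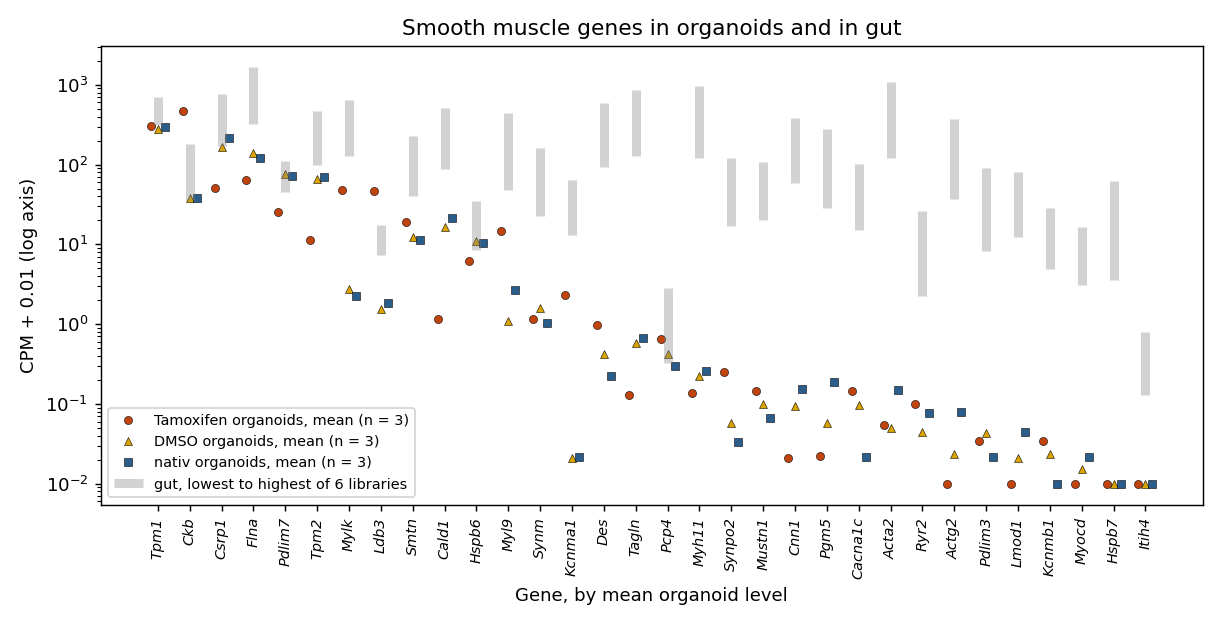
The vertical axis is CPM + 0.01 on a log scale and the horizontal axis lists the 32 genes by mean organoid level. Points are the means of Tamoxifen, DMSO and nativ organoids (n = 3 each), and grey bars run from the lowest to the highest of 6 gut libraries. Ckb and Ldb3 in Tamoxifen organoids lie above their gut bars, and 26 genes have gut bars above all organoid libraries.

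DMSO against nativ organoids, which share code and genotype, gave 0 of 17 calls by edgeR, and 0.0% of all genes. At an unadjusted p under 0.05 it held 3 of the 17, against 14.6% of all genes. DESeq2 called 1 member, Myl9 (log2 change -1.38, adjusted p = 0.0149), against 0.923% of all genes. Myl9 had 1.25, 1.27 and 0.754 CPM in DMSO organoids, against 2.36, 3.92 and 1.84 CPM in nativ organoids, and its groups did not overlap.

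Pathway genes outside the list behaved in organoids as a mixture. In Tamoxifen against DMSO organoids, 6 of 12 tested signalling genes were called higher and 0 lower, 3 of 4 receptors higher and 1 lower, 2 of 6 transcription factors higher and 2 lower, and 3 of 18 genes of the cytoskeleton and membrane higher and 10 lower. Over all genes these shares were 33.9% higher and 32.4% lower. The cytoskeleton and membrane set had a median log2 change of -0.64, against 0.02 over all genes.

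Some counts of the members may hold reads of a neighbour. By their deposited positions, 14 of 32 genes overlap another gene, and for 5 the partner, on the opposite strand, reached over 10% of the level of the member in gut. Car9 reached 65.2% of Tpm2, Lin37 reached 93.3% of Hspb6, Pcsk7 reached 23.9% of Tagln, Dcp1b reached 23.5% of Cacna1c and the noncoding Gm11946 reached 19.6% of Smtn. Whether counting used strand is not given in the sources used here, so reads of these pairs may not be fully separated.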

How the data were processed

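Gut and organoid RNA was sequenced after poly(A) enrichment, per the labels' protocols. The authors deposited expected counts per gene, unscaled, 1 table for gut and 1 for organoids. Per the submitters' processing notes, reads were handled with STAR 2.7.2b, featureCounts 1.6.4, cutadapt 2.5, bcl2fastq 2.20.0.422 and DESeq2 on GRCm38.p6. Per library, 10.4% to 13.7% of the values have a fractional part, which leaves the split of reads between near-identical genes uncertain.

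Counts were rounded to whole reads and tested with edgeR 4.0.16 in R 4.3.3 (TMM factors, filterByExpr by group, robust quasi-likelihood F test, Benjamini-Hochberg adjustment over all genes, calls at an adjusted p under 0.05). Gut was fitted on 6 libraries and organoids on 9. SE were obtained as absolute log2 change over root F, and CPM from library totals. The test was checked on simulated counts. Alternatives were DESeq2 1.42.0, RLE factors, library totals, other count filters, a replicate block, fits restricted to the 6 libraries compared, and omission of each library in turn. Per-library values are given for the 2 most abundant genes of each role, Myocd, genes running against the median, and the 6 most abundant in organoids. Values per library of other members were chosen after they were seen. The members and lists were chosen with earlier results of these data known. Symbols and positions come from the deposited tables. Python 3.11.15 and matplotlib 3.10.9 drew the figures. A gene that the naming rule picks is not reported here.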

Additional observations from a re-analysis of the deposited data

How the results depend on the processing

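In gut, 0 of 32 genes were called under every alternative except leaving out ctr replicate 3; leaving out each library in turn gave 0 to 21 calls and a median log2 change of -1.71 to -0.82. Single estimates that changed sign when a library was left out were Cald1 (-1.15 to 0.028), Pdlim7 (-0.30 to 0.26, with 0.08 without PG_KO replicate 3) and Hspb7 (-1.50 to 0.53); the cause was not tested. Deviations of same-numbered gut libraries had correlations of 0.289, -0.183 and 0.155, against -0.306 to 0.215 for differently numbered ones. With 3 libraries a group, these values do not decide whether the numbers pair the samples. With the replicate block the gut call count was 0 and the median -1.04, and the organoid call counts were 14, 14 and 0 for Tamoxifen against DMSO, Tamoxifen against nativ and DMSO against nativ.

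The organoid medians lie near 0 and moved with the settings. For Tamoxifen against DMSO (0.06) they were 0.13 on library totals, -0.23 with at least 1 CPM in 3 libraries and 0.28 in a fit of the 6 compared libraries. For Tamoxifen against nativ (0.04) they were 0.15 on library totals, -0.0273 with no filter and -0.032 with the 1 CPM filter, and -0.14 to 0.19 with a library left out. For DMSO against nativ (-0.01) they were -0.081 by DESeq2 and -0.084 with no filter, and DESeq2 called 1 gene. Signs also turned for Tpm1 (0.031, Tamoxifen against nativ, library totals) and Ckb (0.00079, DMSO against nativ, library totals), and with a library left out for Synm (-0.19 to 0.19, Tamoxifen against nativ), Ckb (-0.10 to 0.022), Tpm2 (-0.33 to 0.030) and Pdlim7 (-0.012 to 0.066, all DMSO against nativ). The cause was not tested. With 3 gut libraries a group and 1 ctr library apart, changes of the size seen here were not called, and the labels do not say which libraries had less input RNA.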
